A study of Homo sapiens with 9 samples.

Results

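The 9 tumour libraries of this study were grouped by how much RNF4 transcript they held, whatever construct their label names. RNF4 chose the groups by its CPM, the raw count scaled to a common total of all counts in a column: 4 libraries at 200 CPM or more were called RNF4 high and the other 5, all under 200 CPM, RNF4 low, so that all 9 of 9 libraries were used. RNF4 set the groups, and its own values are given as a description with no test. Every other gene was then described between the groups.

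The tumours were xenografts of the established BRAF-mutant human melanoma line A375, grown in immunocompromised nude mice and taken at day 30. Each library was made from 2 pooled tumours and 800 ng of RNA. The cells carried a construct from which doxycycline (Dox) in the drinking water, given from day 3, induces RNF4 or a catalytically inactive form of it with a mutated RING domain (the RING mutant). By label, 3 libraries were RNF4 with Dox (columns T2, T5 and T13), 3 were RNF4 without Dox (T1, T4 and T12) and 3 were RING mutant with Dox (T3, T6 and T14). The series text names GFP-expressing tumours as controls, whereas the titles of the control libraries describe the RNF4 construct without Dox. The nude host still supplies stroma, vessels and innate immune cells, so the libraries hold RNA of mouse cells as well.

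RNF4 is a ubiquitin ligase that recognises chains of SUMO, a small protein attached to other proteins, through several SUMO-interacting motifs. Its RING domain brings in the ubiquitin-loaded conjugating enzyme, and a substrate with SUMO chains is then marked for the proteasome, the best known being PML, the scaffold of nuclear PML bodies. RNF4 has also been described to stabilise some short-lived oncoproteins, among them MYC, the intracellular part of Notch and beta-catenin, and in melanoma it has been linked to the translation factor eIF2alpha, whose phosphorylation raises ATF4. Such actions are on proteins, whereas the libraries measured poly(A) RNA.

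In the high group RNF4 stood at 338 CPM of the column total in T2, 435 in T5, 483 in T13 and 601 in T6. In the low group it stood at 24.2 CPM in T1, 56.0 in T4, 46.7 in T12, 47.8 in T3 and 68.1 in T14. The lowest high library, T2, was thus 4.97 times the highest low library, T14, and no library lay near the limit of 200 CPM. T6, labelled RING mutant with Dox, had the highest RNF4 level of all 9 libraries. T3 and T14 carry the same label and lay at the level of the libraries without Dox, T3 just above T12 and T14 above all 3. The counts are per gene, so transcripts of the construct and of the cell's own RNF4 locus (chr4:2462220-2625320, plus strand, GRCh38) cannot be told apart, nor can the wild-type and the mutant construct.

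**Figure D1:**
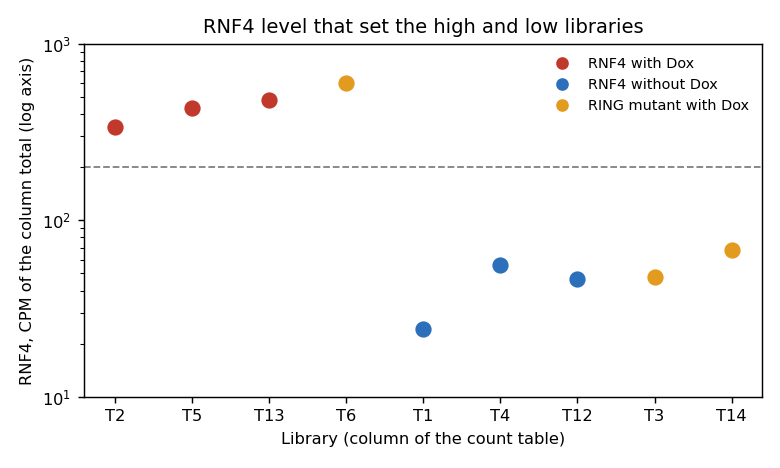
RNF4 in CPM of the raw column total, on a log axis, for each of the 9 libraries, with the limit of 200 CPM dashed and colours by label. The 4 high libraries lie between 338 and 601 CPM and the 5 low ones between 24.2 and 68.1 CPM, and the 3 RING mutant libraries fall on both sides of the limit.

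High and low libraries therefore differ in more than RNF4. The high group holds 3 RNF4 libraries with Dox and 1 mutant library with Dox, and the low group 3 RNF4 libraries without Dox and 2 mutant libraries with Dox. Dox and the activity of the protein cannot be told apart from the transcript level within the RNF4 libraries, and within the mutant libraries the high side is 1 library. Column totals ran from 16416426 to 28934692 counts and 26070 to 29482 genes had a count. T1 and T2 stood apart: the share of counts from ribosomal protein genes was 26.0% for T1, 16.1% for T2 and 6.52 to 9.73% for the remaining 7, and the first principal component (39.3% of the variance) separated this pair from the rest. SOX10, a neural crest and melanoma factor, was present in every library at 39.04 to 80.9 CPM. MITF, the melanocyte master regulator, was at 10.6 to 22.1 CPM. The pigment gene TYR did not pass 1.48 CPM and MLANA did not pass 1.88 CPM. Other pigment genes ranged more widely: PMEL from 0.743 to 10.2 CPM, TYRP1 from 0.205 to 8.13 CPM and DCT from 0.0684 to 6.93 CPM. High and low groups were compared in 12 library properties, including depth and summed CPM of 8 marker lists for melanocytes and host cells. None passed (exact permutation test, two-sided, Benjamini-Hochberg adjusted p of 0.952 or more). The smallest raw p that 4 against 5 libraries allow is 0.0159. After adjustment over 12 properties, full separation in only 1 of them could not pass 0.05. The test therefore cannot show that the groups were alike. Single libraries did differ: skeletal muscle markers summed to 1036 CPM in T14 and to 19.4 to 271 CPM elsewhere, and keratinocyte markers to 712 CPM in T13 and to 143 to 300 CPM elsewhere. In such bulk samples fewer cells of a type and less RNA per cell cannot be told apart.

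No gene passed the test between RNF4 high and low libraries, from which RNF4 was left out. Of 18617 genes tested with edgeR's quasi-likelihood test, 0 were called at a Benjamini-Hochberg adjusted p under 0.05 (0% of the genes), and the smallest adjusted p was 0.999969. The unadjusted p fell below 0.05 for 109 genes, of which 36 (0.193%) had larger and 73 (0.392%) smaller values in the high libraries. That is fewer than 1% of the genes, whereas evenly spread p-values would place a share of 0.05 of them there. The count is thus no excess, and the p-values were not evenly spread. Unadjusted p-values of single genes are therefore given from here on as a ranking only. DESeq2 gave 0 called and 119 at an unadjusted p under 0.05, and limma voom with quality weights 0 and 743. Leaving out T1 gave 0 called and 374 genes at an unadjusted p under 0.05. The p-values measure the spread between these pooled samples.

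The median fitted log2 difference, high minus low, was -0.03 over all genes and 42.0% of the genes lay above 0. The fit was scaled by TMM, which evens out the bulk of the genes between libraries. A median near 0 is set by that scaling and cannot show whether the typical gene moved. Among the 11530 genes with a mean of 5 CPM or more, only 21 differed by over 1 log2 unit, 5 higher and 16 lower. For comparison, the fitted log2 difference of RNF4 itself, which chose the groups, was 3.24.

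A second, stricter description asked which genes held all 4 high libraries on the same side of all 5 low ones. In 56 genes the 4 high libraries did not overlap the 5 low ones in CPM scaled by TMM, which evens out the bulk of the genes between libraries (the scale of the CPM values of genes from here on): 18 genes lay above in all 4 high libraries (0.0967% of the genes tested) and 38 below (0.204%). Their absolute log2 differences ran from 0.11 to 2.01 with a median of 0.65, and 33 of the 56 had an unadjusted p under 0.05. Libraries in random order would separate a share of 0.0159 of the genes, so the 56 are no excess either. T6 was the high library nearest to the low ones in 25 of these 56 genes, T5 in 13, T2 in 9 and T13 in 9. The library with the most RNF4 thus often lay closest to the low group. Leaving out a library raises such a count by construction, and it came to 276 without T1 and to 430 without both T1 and T2.

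The genes with the smallest p-values were lower in the high libraries and include surface and adaptor proteins. ITGA1, the alpha-1 integrin subunit that pairs with beta-1 to bind collagen (chr5:52787896-52959210, plus strand), was at 50.1 CPM in T2, 35.6 in T5, 34.2 in T13 and 61.3 in T6. In the low libraries ITGA1 was at 98.03 CPM in T1, 73.5 in T4, 91.0 in T12, 71.2 in T3 and 78.9 in T14. All 4 high libraries lay below all 5 low ones, with T6 nearest to them. The group means were 45.3 ± 12.9 CPM (SD, n = 4) and 82.5 ± 11.6 CPM (SD, n = 5), a log2 difference of -0.87 ± 0.20 (SE; edgeR unadjusted p = 0.00138, adjusted p = 0.999969).

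SYTL5, a synaptotagmin-like Rab effector of vesicle traffic (chrX:38006582-38128819, plus strand), had the smallest p of all genes. It was at 33.1 CPM in T2, 26.5 in T5, 26.2 in T13 and 37.8 in T6, and at 48.1 in T1, 58.1 in T4, 50.8 in T12, 45.9 in T3 and 51.0 in T14. The difference between the group means, 30.9 ± 5.59 and 50.8 ± 4.59 CPM (SD, n = 4 and 5), was larger than the spread within either group. The log2 difference was -0.72 ± 0.15 (SE; edgeR unadjusted p = 7.08e-04, adjusted p = 0.999969). AL121578.3, a transcript on the same strand of the X chromosome that ends 57177 bases before SYTL5 begins, lay lower as well, at 0.496 to 1.14 CPM in the high and 1.42 to 2.13 CPM in the low libraries. SHC4, an adaptor of the SHC family that passes on signals of receptor tyrosine kinases (chr15:48823735-48963444, minus strand), was at 3.97 CPM in T2, 3.36 in T5, 3.64 in T13 and 4.24 in T6. Its low libraries were wider apart, at 12.2 CPM in T1, 6.64 in T4, 6.05 in T12, 9.24 in T3 and 5.34 in T14. The log2 difference of SHC4 was -1.05 ± 0.27 (SE, edgeR unadjusted p = 0.00291).

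The upstream 250 bases are shown for ITGA1, SYTL5 and SHC4, the 3 lower genes just described. In each of these genes all 4 high libraries lay below all 5 low ones. The bases were read from RefSeq (GRCh38.p14) on each gene's own strand, at chr5:52787666-52787915, chrX:38006303-38006552 and chr15:48963920-48964169. They follow RefSeq gene starts, which differ from the gene coordinates given above. The ITGA1 window runs into the gene as given there, and the SYTL5 and SHC4 windows stop short of theirs. Capitals mark matches on either strand to 5 short motifs, whose matches can overlap. The AP-1 motif was searched as TGANTCA and the E-box motif as CANNTG. For the GC box the letters were GGGCGG. The CAAT box, bound by NF-Y, was searched as CCAAT, and the TATA box of core promoters as TATAAA.
ITGA1: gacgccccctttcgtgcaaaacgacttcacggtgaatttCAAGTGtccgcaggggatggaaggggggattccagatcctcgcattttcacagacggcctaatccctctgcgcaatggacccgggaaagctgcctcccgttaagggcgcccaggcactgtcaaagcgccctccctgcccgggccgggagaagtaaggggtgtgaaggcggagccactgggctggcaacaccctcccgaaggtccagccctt
SYTL5: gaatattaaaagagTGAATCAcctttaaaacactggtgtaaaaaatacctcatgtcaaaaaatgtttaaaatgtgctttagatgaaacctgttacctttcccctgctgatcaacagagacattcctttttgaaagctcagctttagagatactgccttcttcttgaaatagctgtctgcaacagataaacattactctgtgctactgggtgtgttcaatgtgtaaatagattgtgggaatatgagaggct
SHC4: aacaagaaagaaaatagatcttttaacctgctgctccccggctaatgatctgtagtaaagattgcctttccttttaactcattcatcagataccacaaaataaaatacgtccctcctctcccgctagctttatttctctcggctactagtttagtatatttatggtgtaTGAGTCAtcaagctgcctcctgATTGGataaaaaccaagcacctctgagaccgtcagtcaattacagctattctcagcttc
SYTL5 and SHC4 each hold 1 AP-1 match and ITGA1 holds 1 E-box match, and SHC4 also holds a CAAT box. Of the 27305 RefSeq promoters of this length, 6.6% hold an AP-1 match, 62.2% an E-box, 42.3% a GC box, 33.0% a CAAT box and 11.1% a TATA box. Of the 56 genes without overlap, 40 matched a promoter and of these 10% held an AP-1 match (4 genes), 65% an E-box, 60% a GC box, 25% a CAAT box and 5% a TATA box. Over the 12113 promoters matched to genes tested, the shares were 4.42%, 54.3%, 65.1%, 34.7% and 5.89% in the same order. The windows differ in base composition, with 62% G and C in ITGA1, 36% in SYTL5 and 40% in SHC4, against a median of 58% over all promoters.

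Other lower genes were at low levels. WNT7B, a secreted Wnt ligand (chr22:45920362-45977129, minus strand), was at 1.82 CPM in T2, 1.75 in T5, 2.27 in T13 and 3.72 in T6, and at 6.02 in T1, 6.80 in T4, 3.77 in T12, 3.73 in T3 and 5.06 in T14. T6 and T3 were 3.72 and 3.73 CPM, so that this pair was level. Its log2 difference was -1.09 ± 0.31 (SE, edgeR unadjusted p = 0.00547). NPAS3, a neuronal transcription factor, LINC01819, a long noncoding RNA, and CFD, the complement protease factor D, were also below in all 4 high libraries, with log2 differences of -0.67, -0.73 and -0.80. CFD is also 1 of the adipocyte markers, whose summed level ran from 60.8 to 108 CPM in the high and 61.8 to 115 CPM in the low libraries. CSMD2, a large membrane protein, had a difference of -0.80 with no value above 2.20 CPM. VAT1L (-0.75), LUZP2 (-1.09) and AUTS2 (-0.95), a regulator of neuronal transcription, had an unadjusted p under 0.05 but overlapped between the groups.

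Separated genes of higher level were looked at after their values were seen. PMEPA1, a membrane protein that restrains TGF-beta signalling and is itself induced by it, was at 184 CPM in T2, 232 in T5, 228 in T13 and 275 in T6, and at 287 in T1, 278 in T4, 360 in T12, 325 in T3 and 353 in T14. T6 and T4 were close, at 275 and 278 CPM, and the log2 difference was -0.48 ± 0.17 (SE, edgeR unadjusted p = 0.0173). INPP5F, a phosphoinositide phosphatase, was at 46.9 to 55.4 CPM in the high and 56.7 to 72.5 CPM in the low libraries, a difference of -0.35. TRAF1, an adaptor of TNF receptors, was at 5.54 to 6.54 CPM against 6.70 to 9.37 CPM. S1PR1, a receptor for sphingosine 1-phosphate, lay the other way, at 26.4 CPM in T2, 27.9 in T5, 33.4 in T13 and 24.0 in T6 against 16.8 to 23.9 CPM in the low libraries, with a log2 difference of 0.38 ± 0.16 (SE, edgeR unadjusted p = 0.0383).

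Genes higher in the RNF4 high libraries were few and mostly at a few CPM. CAVIN2, a coat protein of caveolae (chr2:191834302-191847255, minus strand), was at 1.05 CPM in T2, 1.70 in T5, 3.68 in T13 and 1.62 in T6. In the low libraries CAVIN2 was at 0.479 CPM in T1, 0.866 in T4, 0.196 in T12, 0.533 in T3 and 0.909 in T14, which are 5 to 27 raw counts. The groups did not overlap and the log2 difference was 1.74 ± 0.49 (SE; edgeR unadjusted p = 0.0048, adjusted p = 0.999969). FAM180A was at 2.34 to 3.49 CPM in the high and 1.02 to 1.96 CPM in the low libraries (log2 difference 0.92). ZNF723, a zinc finger gene, was at 1.82 to 3.28 CPM against 0.909 to 1.57 CPM (1.001). CDO1, the cysteine dioxygenase that starts cysteine breakdown, was at 1.70 to 3.499 CPM against 0.83 to 1.57 CPM (0.88). PLSCR4, a phospholipid scramblase, was at 4.59 CPM in T6 and at 1.44 to 2.61 CPM in the other high libraries, against 0.474 to 1.38 CPM in the low ones (1.37). ALOX12P2, a lipoxygenase pseudogene that may share reads with its paralogs, was at 4.76 CPM in T13 and at 0.717 to 1.18 CPM in the other high libraries, against 0.289 to 0.684 CPM.

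SEMA3E, a secreted semaphorin, VGLL3, a cofactor of TEAD transcription factors, KCNT2, a potassium channel, and CCBE1, a secreted factor of lymphatic growth, were among the 10 higher genes of smallest p, with log2 differences of 1.02, 1.54, 0.62 and 0.48. Their groups overlapped in 1 library each on the high side: 3 of 4 high libraries lay above all 5 low ones. VGLL3 varied most, from 3.25 CPM in T2 to 26.9 CPM in T5.

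UNC5C, a netrin receptor (chr4:95162504-95549206, minus strand), separated the RNF4 libraries by Dox but not the high from the low libraries. It was at 8.80 CPM in T2, 10.7 in T5 and 14.1 in T13, and at 0.205 CPM in T1, 0.963 in T4 and 0.629 in T12. Among the mutant libraries UNC5C was at 4.24 CPM in the RNF4 high library T6 but at 5.10 CPM in T3, which is RNF4 low, and at 0.17 CPM in T14. T3 and T6 therefore did not follow their RNF4 level, and high and low groups overlapped. UNC5C-AS1, which starts on the opposite strand and overlaps the 5' end of UNC5C by 78 bases, gave the same order: 2.06 to 3.598 CPM in the 3 RNF4 libraries with Dox, 1.40 in T6, 1.66 in T3 and at most 0.0786 CPM in the other 4. The libraries were strand-specific, but whether the counting used strand is not given in the sources used here, so reads in the shared stretch may count for either. High minus low, UNC5C differed by 2.75 ± 0.83 log2 units (SE, edgeR unadjusted p = 0.00743), and the RNF4 libraries with minus without Dox by 4.15 ± 0.98 (SE; unadjusted p = 0.00229, adjusted p = 0.999999). The authors' deposited table gives UNC5C a log2 fold change of 4.17 with an adjusted p of 0.00292 for that second comparison, and ITGA1 one of -1.14 with an adjusted p of 0.536.

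**Figure D2:**
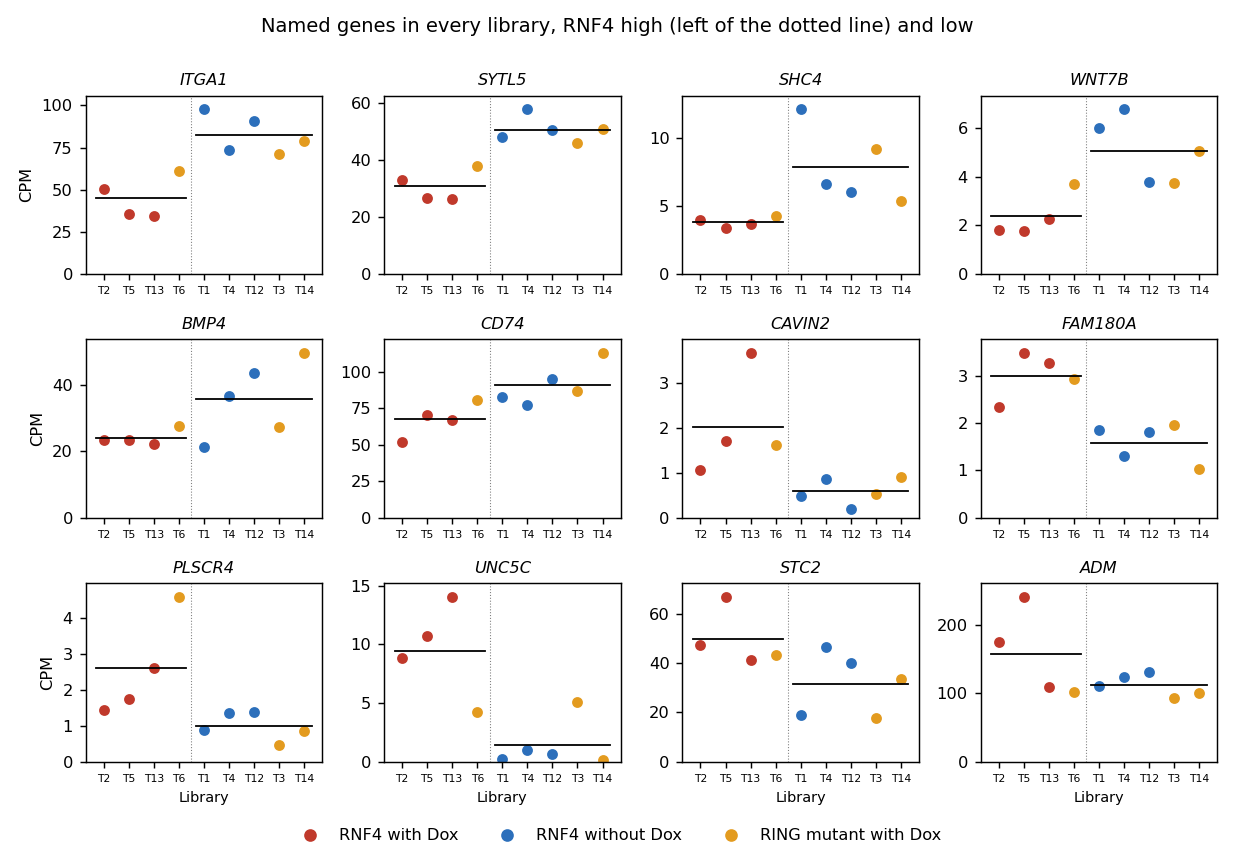
CPM (linear axes from 0) of 12 named genes in each library, RNF4 high libraries left of the dotted line and RNF4 low ones right, with group means as black lines and colours by label. ITGA1, SYTL5, SHC4, WNT7B, CAVIN2, FAM180A and PLSCR4 do not overlap between the groups, whereas BMP4, CD74, UNC5C, STC2 and ADM do.

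Since the high group mixes both constructs, the same libraries were fitted with 4 group means, which gives the difference within the RNF4 libraries (with minus without Dox, 3 against 3), the difference within the mutant libraries (T6 minus T3 and T14, 1 against 2) and the difference of these differences. The lone T6 is assumed in this fit to vary like the other groups. In edgeR 0 genes were called in each of the 3, and at an unadjusted p under 0.05 there were 88 (0.473%), 139 (0.747%) and 183 (0.983%) genes. ITGA1 differed by -1.13 ± 0.23 within the RNF4 libraries and by -0.29 ± 0.34 within the mutant ones (SE), and the difference of -0.84 ± 0.40 did not pass (edgeR unadjusted p = 0.0667). SYTL5 differed by -0.87 ± 0.19 and by -0.36 ± 0.29, and SHC4 by -1.18 ± 0.37 and -0.78 ± 0.57. WNT7B differed by -1.50 ± 0.35 and by -0.24 ± 0.52. These 4 genes did not overlap between high and low libraries, which by construction gives the same sign in both constructs. The estimate was larger in the RNF4 libraries for each. The difference between constructs had an edgeR unadjusted p of 0.173 for SYTL5, 0.562 for SHC4 and 0.0682 for WNT7B. PLSCR4 had the larger value in the mutant libraries, 2.78 ± 0.61 against 0.67 ± 0.42, and CDO1 likewise, 1.91 ± 0.49 against 0.38 ± 0.34 (unadjusted p of the difference in edgeR 0.0197 and 0.031, adjusted p = 0.999886).

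Some genes differed more between constructs than with RNF4 level. CXXC4, an inhibitor of Wnt signalling, was at 3.89 CPM in T6 and at 0.0593 in T3 and 0.227 in T14, whereas the RNF4 libraries with Dox (1.32 to 2.49 CPM) and without (1.44 to 2.15 CPM) overlapped; the difference between constructs was -4.69 ± 0.86 (SE; edgeR unadjusted p = 4.56e-04, adjusted p = 0.999886). AGTR1, the angiotensin II receptor, was at 7.04 CPM in T6, 0.356 in T3 and 0.227 in T14, and EPHA3, an ephrin receptor, at 12.9, 2.25 and 3.13 CPM, while in the RNF4 libraries AGTR1 stayed between 0.765 and 2.07 CPM and EPHA3 between 6.64 and 10.8 CPM. AC020907.1 was at 4.20 CPM in T6 and at 0.474 and 0.795 CPM in T3 and T14. In the other direction HLA-DQB1, a class II antigen-presenting chain, was at 0.0875 CPM in T6 against 2.01 in T3 and 1.42 in T14. SEMA4A and the endothelin receptor EDNRA were also lower in T6 than in both other mutant libraries, EDNRA at 35.6 CPM against 77.4 and 71.0. In the RNF4 libraries EDNRA was at 33.4 to 53.9 CPM, so T3 and T14 lay outside that range and T6 within it. KRT85, a hair keratin, was at 12.5 CPM in T14 and 3.02 in T13, and at 0.533 CPM or less elsewhere. T14 held the most muscle marker RNA and T13 the most keratinocyte marker RNA. For CXXC4, AGTR1 and EPHA3, T6 lay above and T3 and T14 below all RNF4 libraries. T6 is 1 library, so these values describe the single libraries T3, T6 and T14 as much as their RNF4 level.

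A check on disjoint libraries asked whether T6 followed genes that separate the RNF4 libraries. Genes were chosen with T2, T5 and T13 against T1, T4 and T12, and read out in T6 against T3 and T14. Of the 162 genes above in all 3 libraries with Dox (0.87% of the genes), T6 lay above both T3 and T14 in 30 (18.5%), and over all genes tested it did so in 23.7%. Of the 269 genes below in all 3 (1.44%), T6 lay below both in 65 (24.2%), against 25.6% over all genes. On the opposite side T6 lay in 34.6% of the higher genes, against 25.6% over all genes, and in 34.9% of the lower genes, against 23.7%. T6 thus took the side of the RNF4 libraries no more often than genes in general and the opposite side more often. These shares move with T1 and T2. Choosing the genes from T5 and T13 against T4 and T12 gave 1858 higher and 2073 lower genes. T6 followed in 34.0% of the higher genes, against 23.7% over all genes, and in 28.5% of the lower, against 25.6%. It took the opposite side in 22.2% of the higher genes, against 25.6% over all genes, and in 28.5% of the lower, against 23.7%. In these lower genes T6 thus took both sides equally often. With T3 read out in the place of T6, 50.6% of the lower genes followed, against 36.5% over all genes, and with T14 25.3% did, against 37.7%.

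**Figure D3:**
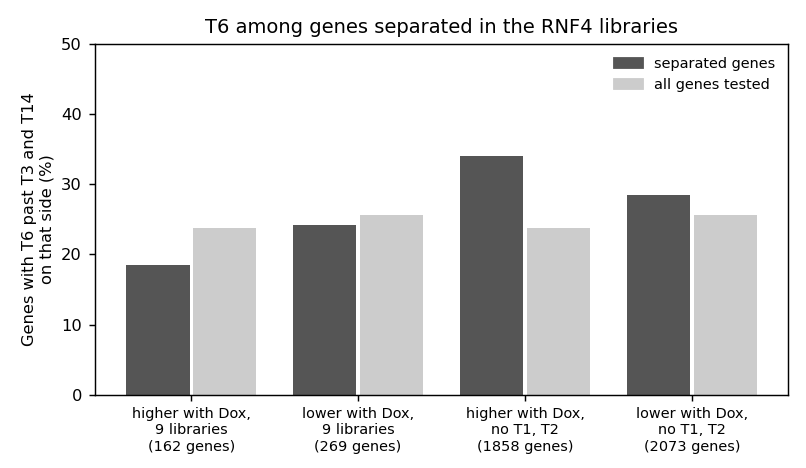
Share of genes (percent, bars from 0) in which T6 lay past both T3 and T14 on the side that the RNF4 libraries with Dox took, for genes separated in the RNF4 libraries (dark) and for all genes tested (light). With all libraries the dark bars are 18.5% and 24.2% against 23.7% and 25.6%, and without T1 and T2 they are 34.0% and 28.5%.

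Differences of mean log2 CPM, not fitted ones, were then compared between the RNF4 and the mutant libraries over the genes of mean 5 CPM or more. They had a Pearson r of -0.33 and a Spearman rho of -0.25, across genes, which are not independent replicates. These differences had an SD over genes of 0.18 log2 units in the RNF4 libraries and 0.29 in the mutant ones. Muscle markers differed strongly in opposite directions. Over 15 tested markers of any level, the median fitted difference was 1.92 in the RNF4 libraries. In T6 minus T3 and T14 it was -3.22, where T14 was the library of 1036 CPM. The relation rested on single libraries: r was -0.17 without T1 and T2, -0.21 without T14 and 0.11 without T13. The part of host tissue in it was not tested.

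**Figure D4:**
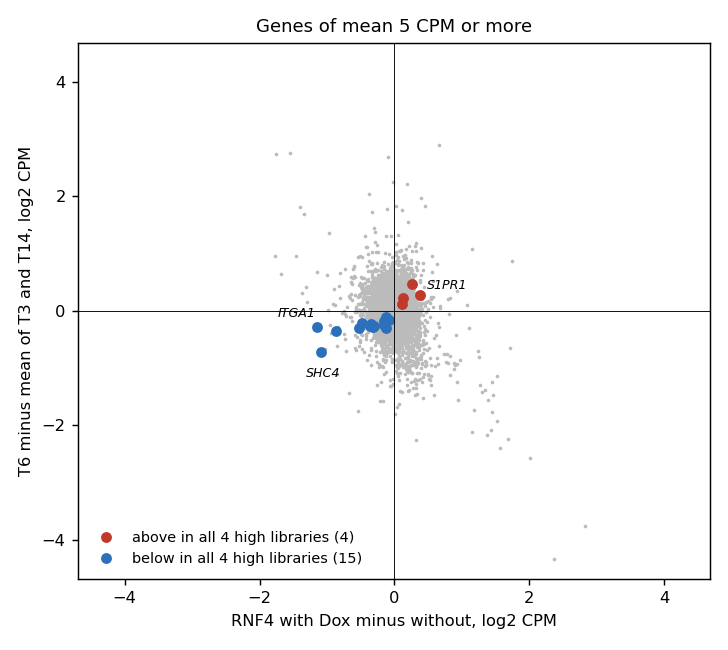
Difference of mean log2 CPM within the RNF4 libraries (horizontal) and T6 minus the mean of T3 and T14 (vertical) for the genes of mean 5 CPM or more (grey), with the genes separated between RNF4 high and low libraries coloured. By construction the coloured genes lie in the upper right and lower left, 4 above and 15 below, and the grey cloud tilts the other way (r of -0.33, but 0.11 without T13).

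Gene lists around RNF4 were read by their members, beside the median of -0.03 and the 42.0% above 0 over all genes. None of the 13 lists described had a called gene. Without T1 and T2 the medians of 3 lists changed sign: MYC targets came to -0.02, mesenchymal genes to -0.05 and ribosomal proteins to 0.23. Of 23 genes of the SUMO pathway, which builds and removes the SUMO chains that RNF4 reads, 16 lay above 0 with a median of 0.03, and their values ran from -0.16 to 0.24. PIAS2, a SUMO ligase, was at 49.5 to 62.9 CPM in the high and 36.4 to 53.5 CPM in the low libraries (log2 difference 0.24), and RANBP2, a SUMO ligase of the nuclear pore, differed by -0.16. PML body genes split evenly, 5 of 10 above 0 with a median of 0.00. SP110 and SP140, nuclear body proteins, differed by 0.10 and -0.19, and both overlapped between the groups.

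For lists around the proteins that RNF4 is described to stabilise, the medians were small, while single members differed by more. The MYC list holds targets, whereas the Wnt and Notch lists also hold ligands and receptors, so their medians do not describe targets alone. MYC targets had 14 of 21 above 0 and a median of 0.04; within the RNF4 libraries the median was 0.13 and in T6 minus T3 and T14 it was -0.17. TFRC, the transferrin receptor, was at 102 to 167 CPM in the high and 128 to 209 CPM in the low libraries, and IPO4, a nuclear import receptor, differed by -0.33. Wnt ligands, receptors and targets had 10 of 29 above 0 and a median of -0.11. Besides WNT7B, ROR1, a receptor for noncanonical Wnt ligands, lay below in all 4 high libraries, at 3.63 to 4.17 CPM against 4.38 to 7.23 CPM (log2 difference -0.48 ± 0.22 SE, edgeR unadjusted p = 0.0485). Notch genes had 5 of 17 above 0 with a median of -0.07; JAG1, a Notch ligand, differed by -0.22 and NOTCH4, a receptor, by -0.56 with values of 0.41 to 3.97 CPM.

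Genes of the ATF4 amino acid response, which build and import amino acids, lay above 0 in 29 of 31, the largest such share of the 13 lists, with a median of 0.12. Their median was 0.22 within the RNF4 libraries (28 of 31 above 0) and 0.02 within the mutant ones (18 of 31). Without T1 and T2 the high minus low median was 0.09. Summed over the list, the high libraries ran from 3456 CPM in T6 to 4358 in T5 and the low ones from 3105 in T1 to 4014 in T4, so the groups overlapped. STC2, a secreted stress-response glycoprotein, was at 47.2 CPM in T2, 66.9 in T5, 41.1 in T13 and 43.2 in T6, and at 18.7 in T1, 46.3 in T4, 39.8 in T12, 17.7 in T3 and 33.6 in T14 (log2 difference 0.66 ± 0.30 SE, edgeR unadjusted p = 0.0485). T4 alone overlapped the high range. CHAC1, which breaks down glutathione, was at 3.97 to 5.55 CPM against 2.59 to 4.20 CPM (0.47).

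Hypoxia response genes lay above 0 in 22 of 25 with a median of 0.14, or 0.06 without T1 and T2. The constructs differed in count: 22 of 25 were above 0 within the RNF4 libraries (median 0.14) but 8 of 25 within the mutant ones (median -0.10). ADM, the vasodilator adrenomedullin, was at 174 CPM in T2 and 241 in T5, but at 110 in T13 and 102 in T6, against 92.7 to 131 CPM in the low libraries. MXI1, an antagonist of MYC, differed by 0.25. Summed over the list, T2 and T5 were highest, with 5857 and 6924 CPM, whereas T13 and T6 were at 4415 and 4169 CPM, within or below the low range of 4321 to 5430 CPM.

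Integrins lay below 0 in 13 of 16, with a median of -0.17, and their medians were -0.15 and -0.19 in the RNF4 and mutant libraries. ITGB8, the subunit of the integrin that activates latent TGF-beta, was at 25.8 CPM in T2, 42.1 in T5, 32.0 in T13 and 42.8 in T6, against 114 in T1 and 36.9 to 47.3 in the other low libraries. T1 thus carried much of its log2 difference of -0.67 ± 0.34 (SE, edgeR unadjusted p = 0.0753). Netrin and axon guidance receptors, the list of UNC5C, lay below 0 in 13 of 18 with a median of -0.20. NTNG1, a membrane-anchored netrin, was higher at 2.39 to 6.82 CPM against 0.795 to 2.94 CPM (1.02), with overlap.

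BMP and TGF-beta signalling genes lay above 0 in 11 of 26 with a median of -0.05. BMP4, a secreted ligand, was at 23.3 CPM in T2, 23.4 in T5, 22.3 in T13 and 27.6 in T6, close together, and at 21.2 in T1, 36.8 in T4, 43.8 in T12, 27.3 in T3 and 49.8 in T14 (log2 difference -0.57 ± 0.24 SE, edgeR unadjusted p = 0.0364). T1 was the lowest of all 9 libraries and T3 lay below T6, so the groups overlapped. ID1, a direct BMP target, was at 25.8 to 41.4 CPM against 33.3 to 61.2 CPM (-0.40).

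Antigen presentation genes lay below 0 in 12 of 17, with a median of -0.08. CD74, the invariant chain of class II molecules, was at 51.9 CPM in T2, 70.8 in T5, 67.1 in T13 and 80.9 in T6, and at 82.9 in T1, 77.1 in T4, 95.5 in T12, 87.0 in T3 and 113 in T14. Only T6 and T4 crossed, and the log2 difference was -0.43 ± 0.17 (SE, edgeR unadjusted p = 0.0292). HLA-DRA, a class II chain, was below in all 4 high libraries but at 0.191 to 0.35 CPM against 0.385 to 1.44 CPM, a few counts. Leukocyte and macrophage markers, of cells that also carry class II, summed to 62.0 to 105 CPM in the high and 56.9 to 123 CPM in the low libraries; their part in CD74 was not tested.

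Invasive and mesenchymal melanoma genes had 11 of 21 above 0 and a median of 0.01. PRRX1, a mesenchymal transcription factor, was at 53.8 to 54.7 CPM in the RNF4 libraries with Dox, below the 68.9 to 79.9 CPM of the RNF4 libraries without Dox, but at 88.8 in T6, between 84.7 in T3 and 103 in T14. SNAI2, a repressor of epithelial genes, was at 26.0 CPM in T2 and at 4.03 to 11.8 CPM in all other libraries. Ribosomal protein genes lay above 0 in 9 of 45 with a median of -0.17, but this followed T1: the median was -0.41 in the RNF4 libraries, 0.27 in T6 minus T3 and T14, and 0.13 with a block for the 3 sets of neighbouring columns (first T1 to T3, then T4 to T6, last T12 to T14; no label calls them a batch). RPS21 and RPL27 differed by -0.80 and -0.79 with all libraries and by 0.84 and 0.88 without T1.

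**Figure D5:**
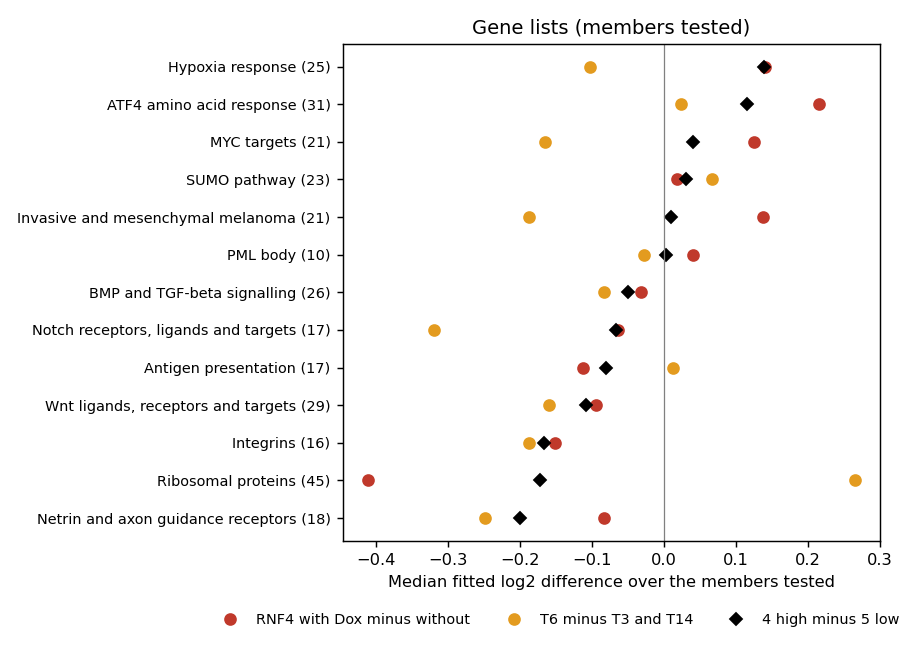
Median fitted log2 difference over the tested members of 13 gene lists, for RNF4 high minus low (black), the RNF4 libraries with minus without Dox (red) and T6 minus T3 and T14 (orange). The black values lie between -0.20 and 0.14, and for hypoxia, MYC, mesenchymal, ribosomal, PML body and antigen presentation genes the 2 constructs lie on opposite sides of 0.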

How the data were processed

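RNA of A375 xenografts was sequenced as single 50-base reads from 9 strand-specific poly(A) libraries. The deposited raw counts per gene (57820 identifiers) were made by the authors with TopHat2 2.0.13, HTSeq 0.6.0 and build GRCh38, and DESeq2 1.10.1 is also listed, per the submitters' processing notes. The counting's strand setting, the annotation release and the treatment of mouse reads are not given in the sources used here. The authors' deposited log2 fold changes and adjusted p-values were only quoted. Columns were matched to groups by name, not to single samples. The groups compared, the gene lists and the named genes were chosen with earlier results of these data known.

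Genes were kept by filterByExpr over the 3 labelled groups (18618, RNF4 included), scaled by TMM and tested with edgeR 4.0.16 (quasi-likelihood, two-sided, Benjamini-Hochberg over all genes but RNF4, threshold 0.05) in R 4.3.3. Named genes were the 10 of smallest p each way and the 6 separated genes of largest difference each way (mean of 1 CPM or more), the 4 of smallest p for the difference between constructs each way, 2 of smallest p per list, and UNC5C, UNC5C-AS1, ITGA1 and WNT7B. Lists held 753 symbols in 37 lists, of which 747 matched; 13 are described. The marker lists besides those had no called gene. Coordinates are from GENCODE 29 on GRCh38. Alternatives were DESeq2 1.42.0, limma 3.58.1, other scaling, filters and covariates, and leaving out libraries. The test was checked on simulated data. No pair of libraries agreed within sampling noise (chi-square per degree of freedom of 13.8 or more).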

Additional observations from a re-analysis of the deposited data

Results flagged for a closer look

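Dixon's rule was applied to 136 groups of 4 or 5 libraries, over the named genes and the library properties. In 21 groups (15.4%) 1 library was apart from the rest. The rule flags about 1 in 20 by chance for normally distributed values. Most values here are CPM of genes chosen from these same data, so the 15.4% cannot be read as an excess. T1 was apart in ITGB8 (114 CPM), RPS21 (12012 CPM), RPL27 (12856 CPM), HLA-DRA (1.44 CPM), the ribosomal protein share (26.0%) and the adipocyte marker sum (61.8 CPM). T2 was apart in SEMA3E (2.73 CPM), SNAI2 (26.0 CPM) and the adipocyte marker sum (60.8 CPM). T3 was apart in UNC5C (5.10 CPM) and UNC5C-AS1 (1.66 CPM), and T4 in CFD (1.80 CPM). T6 was apart in AC020907.1 (4.20 CPM) and PRRX1 (88.8 CPM). T13 was apart in ALOX12P2 (4.76 CPM), KRT85 (3.02 CPM), NOTCH4 (2.11 CPM) and the keratinocyte marker sum (712 CPM). T14 was apart in KRT85 (12.5 CPM), SEMA4A (3.47 CPM) and the skeletal muscle marker sum (1036 CPM).

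In 1 of 55 named genes, ITGB8, all 3 RNF4 libraries with Dox lay below those without while T6 lay above T3 and T14. T6 and T3 were about level, at 42.8 and 42.3 CPM, and the fitted mutant difference was 0.11 log2 units. The mutant libraries thus hardly pointed either way. On the RNF4 side T1 stood apart at 114 CPM, against 47.3 in T4 and 42.8 in T12. The fitted difference between constructs was -1.14 log2 units and did not pass.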

How the results depend on the processing

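Each of the 21 alternatives also called 0 genes between RNF4 high and low libraries, with 72 to 743 at an unadjusted p under 0.05 (109 with the settings used; 562 with no filter on low counts, 198 with a block for the 3 sets of neighbouring columns, 272 with Dox as a covariate, 220 without T1 and T2, and 85 to 374 leaving out 1 library). The count of genes without overlap, 56, was 430 without T1 and T2 and ran from 92 to 276 leaving out 1 library. The share of T6 on the side of the higher genes, 18.5% (23.7% over all genes), was 32.4% on raw column totals (28.9%), 12% at a mean of 5 CPM or more (22.5%), 34.0% without T1 and T2 (23.7%), and with T3 or T14 in its place 36.4% (33.4%) and 45.1% (42.8%). For the lower genes, 24.2% (25.6%), it was 16.4% on raw totals (21.2%), 34.6% at 5 CPM (24.9%), 50.6% with T3 (36.5%) and 25.3% with T14 (37.7%). These readings without T1 and T2 or with T3 or T14 were chosen after seeing the data. Of 1150 fits of high minus low over all 55 named genes, 1121 kept their sign, and 11 genes changed sign in some fit. Many of these genes were chosen by their p or separation in the same libraries, which favours a kept sign. In the 6 RNF4 columns HLA-DQB1 turned to 0.37, SEMA4A to 0.96, EDNRA to 0.25, EPHA3 to -0.031 and AC020907.1 to -0.25. HLA-DQB1 also turned to 0.13 without T6 and 0.0062 without T5 (lowest -0.87 without T13). KRT85 turned to 2.49 with construct as a covariate and 2.54 without T14 (lowest -4.31 without T13). SEMA4A turned to 0.074 with the block, 0.12 with construct, 0.00071 per log2 unit of RNF4, 0.051 without T6 and 0.51 without T14 (lowest -0.73 without T13). SP140 turned to 0.100 in limma voom and 0.034 without T1 and T2, NOTCH4 to 0.48 in the 6 RNF4 columns and 0.10 without T3, SNAI2 to -0.044 without T2 (highest 0.87 without T13). RPS21 and RPL27 turned to 0.26 and 0.26 in limma voom, 0.066 and 0.016 with the block, 0.57 and 0.64 with Dox, 0.28 and 0.22 without T1 and T2, and 0.84 and 0.88 without T1 (lowest -1.35 and -1.45 without T2); the cause was not tested. The r across genes of -0.33 was -0.17 without T1 and T2, -0.21 without T14 and 0.11 without T13, also chosen after seeing the data. ITGA1 kept -1.13 to -0.73, with adjusted p of 0.764 to 1.0. No paired analysis was possible because of missing replicate numbers, in the sense of a pairing given by the labels: the count columns carry other numbers than the titles. The block for neighbouring columns, each set with 1 library of each label, stood in as an alternative and called 0 genes. The high side of the mutant comparison is 1 library.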
